A study of Mus musculus with 9 samples.

Results

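The genes described here encode the Timm and Tomm proteins, the subunits and partners of the translocases that carry proteins across the inner and outer membranes of the mitochondrion. They were picked by name, as every symbol of the deposited table that starts with Timm or Tomm followed by a digit, and 24 of the 27095 loci in the table met this rule. None of them shares its locus with another named gene in that table. RNA was sequenced from wild-type C57BL/6 mouse fetuses on gestational day 17, with 3 animals in each of 3 groups. Control fetuses came from dams injected with lactated Ringer's solution, and EtOH-exposed fetuses from dams given EtOH intraperitoneally early in gestation. The EtOH-exposed affected group had ocular and craniofacial or cortical defects, and the EtOH-exposed unaffected group carried the same exposure without them, so the affected and unaffected groups differ by outcome and not by an assigned treatment. The labels call the tissue fetal brain, the methods call it cortex, and no genetic modification is given for any group.

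Each locus has 1 deposited value per group, in FPKM (fragments scaled to exon length and to the mapped fragments of a library), which summarises the 3 animals of that group. No level below therefore has an error between animals, and no difference below has a test. The depth of the libraries was not estimated, and every difference is a description of these 3 group values. A ratio counts as past the fold where it is over 1.3 in either direction (0.379 on the log2 scale), and only loci with a mean of at least 1 FPKM over the groups enter the counts. Of the 24 genes, 22 passed this filter and 2, Tomm20l and Timm8a2, did not. Markers of cortical projection neurons were high, with Neurod6 at 409 FPKM in control, 378 in unaffected and 416 in affected tissue, while the cerebellar marker Atoh1 was at 0 in control and affected tissue and 0.0124 in unaffected tissue and the other cerebellar marker, Pcp2, was at 1.2, 1.11 and 0.774 FPKM in control, affected and unaffected tissue. The 3 groups also differ in what their FPKM sum to. Control values added up to 1683942, unaffected values to 2124820 and affected values to 1716613, and the 3 highest loci, short and without a gene name, held 34.3%, 41.2% and 38.1% of it. Dividing by these sums moves the median log2 ratio of all loci to -0.33 in unaffected against control and to 0.32 in affected against unaffected tissue, so ratios are read below against the median of all loci.

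Nearly all mitochondrial proteins are made in the cytosol and imported. The TOM complex forms the gate in the outer membrane, with Tomm40 as its beta-barrel pore, Tomm20, Tomm22 and Tomm70a as receptors and Tomm5, Tomm6 and Tomm7 as small subunits around the pore. Beyond it, the small TIM chaperones (Timm8, Timm9, Timm10 and Timm13 proteins) escort hydrophobic precursors through the space between the membranes. The TIM22 complex inserts carrier proteins into the inner membrane, and the TIM23 complex, with the channel proteins Timm23, Timm17a and Timm17b and the receptor Timm50, passes precursors with a cleavable presequence to the matrix or the inner membrane. Cells with high respiration, such as neurons, depend on this supply for their respiratory chain.

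In affected tissue the Timm and Tomm genes lay below the other 2 groups almost throughout. Against control, 21 of the 22 genes past the filter were lower in affected tissue, with a median log2 ratio of -0.28 where the median of all loci was 0.020. Of these, 5 were past the fold (22.7%), namely Tomm5, Timm8b, Timm10, Tomm7 and Timm9, against 8.62% of all loci that were lower by that much. No member was higher past the fold, against 8.78% of all loci. Against the unaffected group, 21 of 22 were again lower in affected tissue, 15 of them past the fold (68.2%), with a median log2 ratio of -0.45 where all loci had 0.012. The share of all loci lower past the fold was 14.6% in that comparison, and the share higher was 16.7%, with 0 members among the latter. With the median of all loci subtracted, 6 members were lower past the fold against control and 16 against unaffected, while dividing by the FPKM sums, which shifts all loci, gave 8 and 1. Scaling to the sum over named loci, chosen after seeing the data, which shifts all loci to 0.20 and 0.26, gave 1 and 2, with medians of -0.10 and -0.20, and subtracting the trend along transcript length gave 3 and 5, with medians of -0.20 and -0.26. With that trend subtracted, 4.53% and 7.59% of all loci were lower past the fold. Under the scalings the share of all loci was not computed, so their counts have no background. Both comparisons use the same affected libraries and are not independent of each other. Unaffected tissue stood slightly above control, with 20 of 22 members higher, a median log2 ratio of 0.12 and all loci at 0.007, but 0 members were past the fold in either direction, while 5.48% of all loci were lower and 4.51% higher past it. This direction is that of the deposited values and of the distance to the median of all loci, and it turned to a median of -0.21 when each group was divided by its FPKM sum, with all loci then at -0.33. Under every alternative tried, 18 members stayed lower in affected than in control tissue, all but Tomm40, Tomm6 and Tomm70a of the 21, and 16 stayed lower in affected than in unaffected tissue, all but Tomm40, Tomm6, Tomm70a, Tomm20 and Timm44. These are signs of the ratio alone. Against unaffected, Tomm6, Tomm20 and Timm44 changed sign only with the FPKM sums, to 0.017, 0.049 and 0.046, with all loci at 0.32. Against control, Tomm6 and Tomm70a changed sign only with scaling to named loci, to 0.033 and 0.055, with all loci at 0.20.

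**Figure D1:**
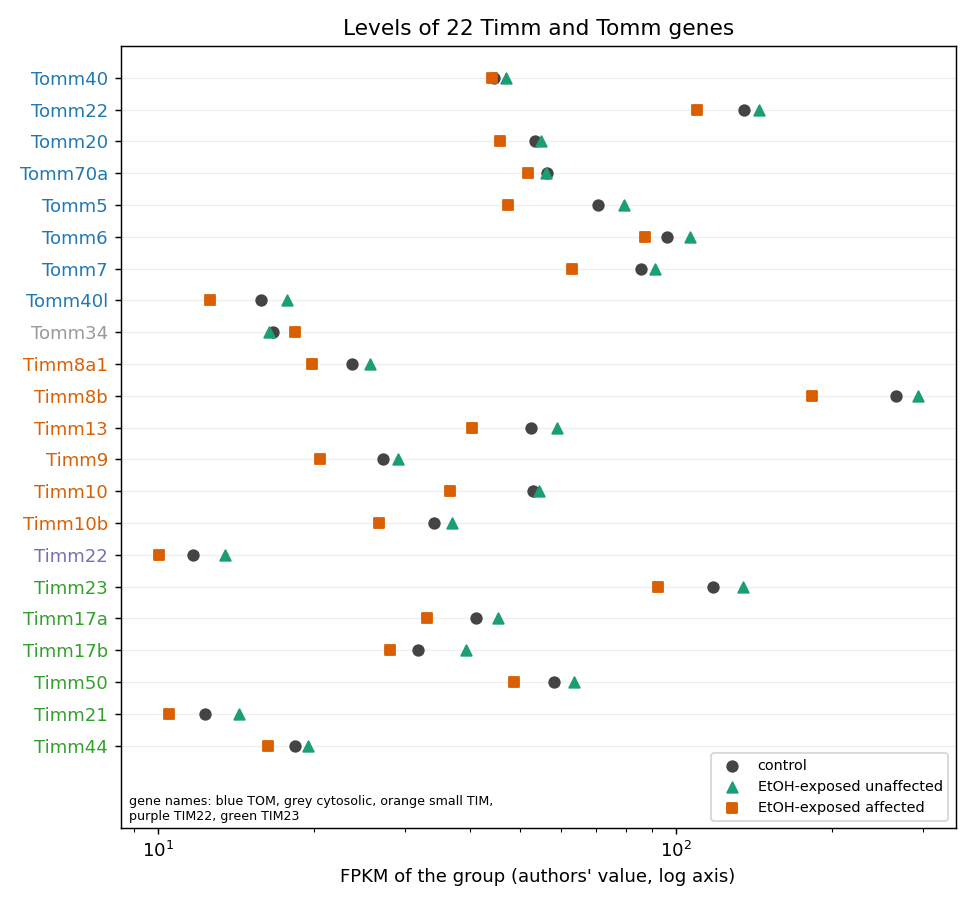
Group FPKM (log axis) of the 22 Timm and Tomm genes past the filter in control (circles), EtOH-exposed unaffected (triangles) and EtOH-exposed affected tissue (squares), with gene names coloured by complex and no error bars because 1 value per group was used. In 20 of 22 genes the square is leftmost and the triangle rightmost. Dividing by the FPKM sum of each group puts the unaffected values of these 20 genes below control, with the median log2 ratio of all loci at -0.33.

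The order of the groups was the same in most members. In 20 of 22 genes, affected was lowest, control next and unaffected highest, an order that 31.0% of all loci past the filter showed. Tomm70a was lowest in affected and highest in control tissue, although its control and unaffected values were almost the same. Tomm34 had the opposite order, lowest in unaffected and highest in affected tissue, as did 32.2% of all loci. In total the 24 genes summed to 1322 FPKM in control, 1441 in unaffected and 1046 in affected tissue.

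The gate of the outer membrane is considered first. Tomm40, the pore, had 44.5 FPKM in control, 47.0 in unaffected and 44.1 in affected tissue, a log2 ratio of -0.014 for affected against control. It was the member with the smallest difference in that comparison, and both rescaling to the sum over named loci and subtracting the trend along transcript length turned it to the other sign. Under the former it was at 0.160, where all loci were at 0.195. Its locus is on chromosome 7 of mm10, from 19701313 to 19715438, on the minus strand, with 9 exons in its principal transcript. The small subunits beside the pore differed more. Tomm5, a small subunit of 51 residues, had 70.8, 79.3 and 47.5 FPKM in control, unaffected and affected tissue. This made it the member furthest below the control level, by 32.9%, and furthest below the unaffected level, by 40.1%. Tomm7, of 55 residues and known for modulating the assembly of the complex and for stabilising PINK1 there, had 85.7, 91.1 and 63.0 FPKM, so that affected tissue was 26.5% below control. Tomm6, another small subunit, had 95.9, 106 and 87.0 FPKM, a difference of only 9.34% between affected and control tissue. Tomm6 shares exon sequence with 3 other annotated genes, and Tomm40 with the antisense gene Gm20512, Tomm70a with Nit2 and Tomm40l with Nr1i3 on the opposite strand. The library kit does not mark strand, so these values, and ratios to Tomm40, are uncertain.

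The receptors lay between these. Tomm22, the central receptor that also holds the complex together, had 135 FPKM in control, 144 in unaffected and 109.7 in affected tissue, 18.8% below control and 24.1% below unaffected. Tomm20, the receptor for presequences, had 53.3, 54.8 and 45.8 FPKM. Tomm70a, the receptor for carriers and other hydrophobic precursors, had 56.4, 56.1 and 51.9 FPKM. In the deposited values neither Tomm20 nor Tomm70a was past the fold in any comparison. Tomm40l, a paralog of the pore, was the lowest expressed TOM gene past the filter, with 15.8, 17.7 and 12.6 FPKM, and was 20.4% below control in affected tissue. Tomm20l, a paralog of Tomm20, was below the filter with 0.0672, 0.0589 and 0.0712 FPKM. Over the 8 TOM genes past the filter, the median log2 ratio was -0.26 for affected against control, with 2 past the fold, and -0.34 for affected against unaffected, with 4 past the fold. The matching shares of all loci lower past the fold were 8.62% and 14.6%.

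The ratio of the subunits to their pore was not the same in the 3 groups. Such a ratio of 2 genes within a group is free of the scaling between groups. Tomm5 stood at 1.59 times the FPKM of Tomm40 in control, 1.69 times in unaffected and 1.08 times in affected tissue. Tomm7 stood at 1.93, 1.94 and 1.43 times, and Tomm22 at 3.04, 3.07 and 2.49 times the level of Tomm40. In these 3 ratios affected tissue was lowest. As Tomm40 differed least between affected and control tissue, this restates the differences above and is no separate result. The trend along transcript length also stays in these ratios. The paralog Tomm40l stood at 0.355, 0.377 and 0.285 times the level of Tomm40, with affected tissue again lowest.

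Tomm34 is named with the TOM family but is a cytosolic cochaperone that binds the Hsp70 and Hsp90 chaperones. It had 16.7 FPKM in control, 16.4 in unaffected and 18.4 in affected tissue, and was the 1 member higher in affected than in control tissue, by 10.3%. It was not past the fold in the deposited values, and reached a log2 ratio of 0.48 against the unaffected group when scaled to the FPKM sums, with all loci at 0.32. With the median of all loci subtracted it had 0.158 in that comparison.

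By the median of the deposited values, the small TIM chaperones were the complex furthest below control, but not with the length trend subtracted, where their median log2 ratio was -0.225 and that of the TOM genes -0.29. Timm8b was the highest expressed of all members, with 266 FPKM in control, 293 in unaffected and 183 in affected tissue, and lay 31.2% below control and 37.4% below the unaffected group. It works in a complex with Timm13, which had 52.5, 59.0 and 40.4 FPKM. At a log2 ratio of -0.376 against control, Timm13 was just short of the fold and was the nearest member outside it. Timm10 and Timm9 form the main hexameric chaperone of the intermembrane space. Timm10 had 53.0, 54.4 and 36.6 FPKM and was 30.9% below control in affected tissue, while Timm9 had 27.2, 29.1 and 20.6 FPKM and was 24.4% below. The ratio of Timm10 to Timm9 was 1.95, 1.87 and 1.78 in control, unaffected and affected tissue. Timm10b, the subunit that docks this chaperone at the TIM22 complex, had 34.1, 37.0 and 26.7 FPKM. Timm8a1, the mouse ortholog of the gene mutated in Mohr-Tranebjaerg deafness-dystonia syndrome, had 23.7, 25.7 and 19.8 FPKM. It was the 1 small TIM gene past the filter that stayed within the fold against the unaffected group, with a log2 ratio of -0.375 just short of it. Timm8a2, a close relative of Timm8a1, was listed at 0 in control and at 0.0484 and 0.0119 FPKM in unaffected and affected tissue, below the filter.

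Over the 6 small TIM genes past the filter, the median log2 ratio was -0.39 for affected against control, with 3 past the fold, and -0.52 for affected against unaffected, with 5 past the fold. Of all loci, 8.62% and 14.6% were lower past the fold in these comparisons. With the length trend subtracted, only Timm10 (-0.388) stayed past it against control and only Timm8b (-0.394) against unaffected. Their summed level was 457 FPKM in control, 498 in unaffected and 327 in affected tissue. Of the summed FPKM of all members, they took 34.5% in control, 34.5% in unaffected and 31.3% in affected tissue, whereas TOM took 42.2%, 41.4% and 44.1%. Timm9 shares exon sequence with Tomm20l on the opposite strand, Timm13 with Tmprss9, Timm8b with Nkapd1 and Timm10b with Arfip2, so that their values are uncertain too. Timm10b also shares exon sequence with the small RNA gene Gm22504 on the opposite strand and with the protein-coding gene Gm45799 on its own strand.

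At the inner membrane the differences were more even. Timm22, the channel of the carrier route, had 11.7 FPKM in control, 13.5 in unaffected and 10.03 in affected tissue, the lowest affected level among the members past the filter. Timm23, the channel of the presequence route, had 118 FPKM in control, 134 in unaffected and 92.2 in affected tissue, and was 21.8% below control and 31.5% below unaffected. Timm17a had 41.1, 45.4 and 33.1 FPKM, and its paralog Timm17b had 31.8, 39.2 and 28.04 FPKM. Timm17b was 23.5% above control in unaffected tissue, a log2 ratio of 0.30 that turned to -0.031 when divided by the FPKM sums, with all loci at -0.33. With the median of all loci subtracted it stayed at 0.297. The ratio of Timm17a to Timm17b was 1.29 in control against 1.16 in unaffected and 1.18 in affected tissue. Timm17b shares exon sequence with Gm10491 on the opposite strand and Timm23 with the small RNA gene Gm23946 on its own strand, so both values are uncertain. The receptor Timm50 had 58.2, 63.5 and 48.6 FPKM. Timm44, which tethers the matrix import motor to the channel, had 18.4, 19.5 and 16.3 FPKM, and Timm21, which links TIM23 to TOM and to the respiratory chain, had 12.3, 14.3 and 10.5 FPKM. None of the 6 TIM23 genes was past the fold against control, where their median log2 ratio was -0.24. Against the unaffected group 5 of the 6 were past it, with a median of -0.45, and Timm44 was the exception at -0.26. The share of all loci lower past the fold was 8.62% against control and 14.6% against unaffected. Against unaffected, only Timm21 (-0.431) stayed past the fold with the length trend subtracted. Division by the FPKM sums, with all loci at 0.32, left no TIM23 gene past it. Timm29, a further subunit of the TIM22 complex, is listed in the table under its former name 1810026J23Rik and so did not enter by the rule. It had 33.7 FPKM in control, 33.96 in unaffected and 33.5 in affected tissue, a log2 ratio of -0.009 for affected against control.

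**Figure D2:**
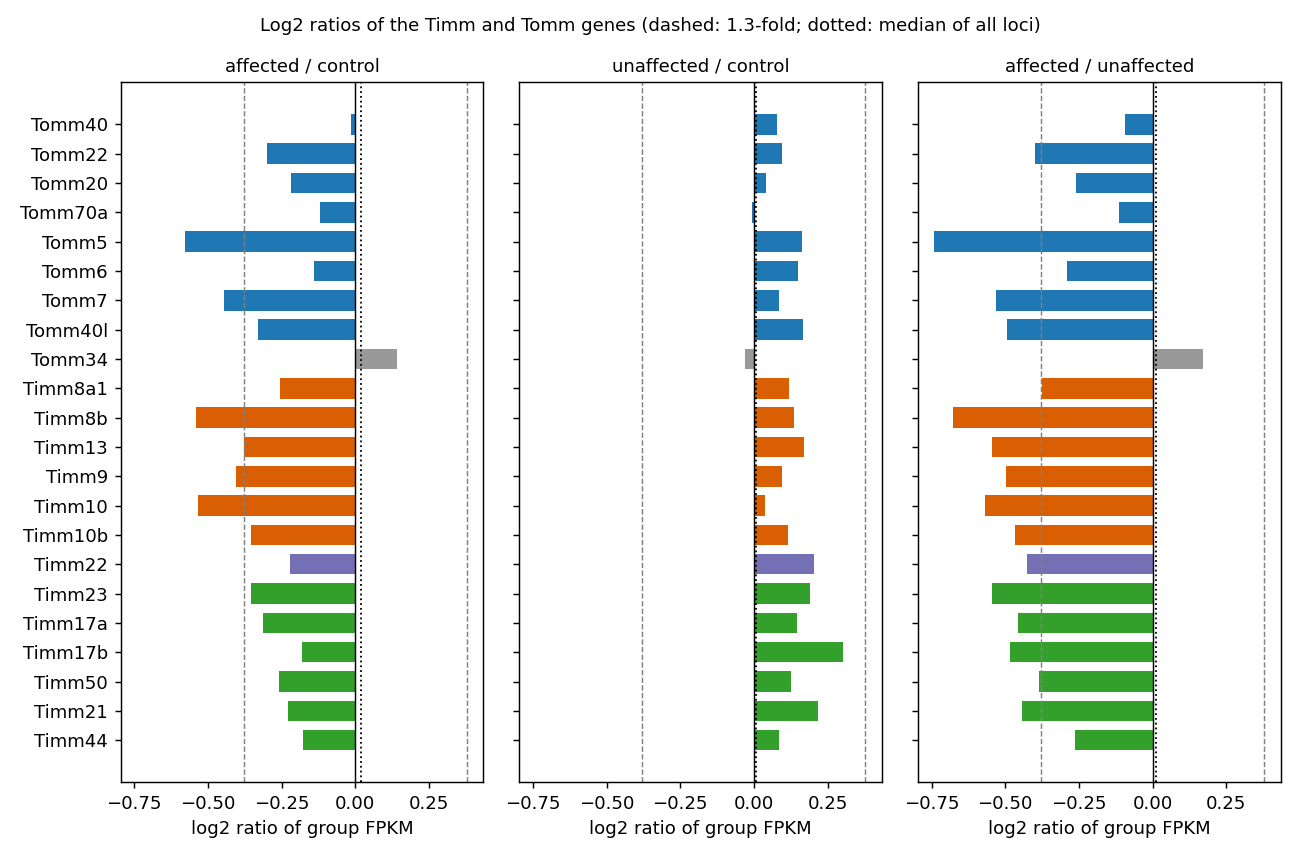
Log2 ratio of group FPKM for each of the 22 genes past the filter in the 3 comparisons, with bars coloured by complex (blue TOM, grey Tomm34, orange small TIM, purple Timm22, green TIM23), dashed lines at 1.3-fold and a dotted line at the median of all loci. The bars of 5 genes pass the lower dashed line for affected against control and those of 15 genes for affected against unaffected. The short bars to the right for unaffected against control turn left when each group is divided by its FPKM sum, which moves all loci to -0.33.

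Some counts of fragments can be shared with near copies of these genes. At 95% identity over at least 100 bases of coding sequence, the mouse annotation holds 6 other genes like Timm23, 5 of them pseudogenes, and 5 like Tomm20, 4 of them pseudogenes. Tomm7 has 2 such copies, and Tomm5, Timm8a1 and Timm17a have 1 each, all pseudogenes. Among the 5 members past the fold against control, Timm8b, Timm10 and Timm9 have none.

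The promoters of 5 members are shown because these members mark the extremes of the range: Tomm5, Timm8b and Timm10 were the furthest below control, Tomm40 differed least, and Tomm34 was the member above control. Each is 300 bases long and runs 5′ to 3′ across the start of the gene, most of it upstream, in the RefSeq annotation of GRCm38.p6, the assembly behind mm10. RefSeq promoters matched 21 of the 24 members. Capitals mark, on either strand, an ETS-type motif (CCGGAAG) in Timm8b, Timm10 and Tomm34, the letters CCAAT in Tomm40 and TATAAA in Tomm5. The coordinates are chr4:45108064-45108363 on the minus strand for Tomm5, chr9:50603651-50603950 on the plus strand for Timm8b, chr2:84826771-84827070 on the plus strand for Timm10, chr7:19715380-19715679 on the minus strand for Tomm40 and chr2:164071120-164071419 on the minus strand for Tomm34.
Tomm5: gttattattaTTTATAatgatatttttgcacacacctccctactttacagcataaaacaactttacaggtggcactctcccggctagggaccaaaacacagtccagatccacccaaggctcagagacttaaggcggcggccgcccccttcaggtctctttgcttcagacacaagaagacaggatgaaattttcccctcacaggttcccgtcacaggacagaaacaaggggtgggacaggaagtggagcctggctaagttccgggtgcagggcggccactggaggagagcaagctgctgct
Timm8b: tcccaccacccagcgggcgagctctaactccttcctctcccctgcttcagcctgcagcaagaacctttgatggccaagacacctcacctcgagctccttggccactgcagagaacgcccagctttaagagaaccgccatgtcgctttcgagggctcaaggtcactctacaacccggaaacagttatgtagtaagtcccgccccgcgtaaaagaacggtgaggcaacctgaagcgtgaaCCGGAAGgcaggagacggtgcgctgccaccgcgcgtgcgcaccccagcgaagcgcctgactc
Timm10: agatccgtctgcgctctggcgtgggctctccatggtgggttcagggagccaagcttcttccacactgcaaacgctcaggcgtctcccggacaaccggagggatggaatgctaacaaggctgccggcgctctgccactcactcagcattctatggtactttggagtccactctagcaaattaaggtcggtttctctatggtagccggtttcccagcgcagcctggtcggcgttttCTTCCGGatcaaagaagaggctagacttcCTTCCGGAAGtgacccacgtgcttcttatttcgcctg
Tomm40: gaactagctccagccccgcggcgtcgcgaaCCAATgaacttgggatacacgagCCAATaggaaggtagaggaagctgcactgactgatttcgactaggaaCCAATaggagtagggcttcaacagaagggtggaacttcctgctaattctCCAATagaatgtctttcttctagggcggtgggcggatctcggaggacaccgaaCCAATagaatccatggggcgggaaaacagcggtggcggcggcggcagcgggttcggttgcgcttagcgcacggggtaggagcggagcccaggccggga
Tomm34: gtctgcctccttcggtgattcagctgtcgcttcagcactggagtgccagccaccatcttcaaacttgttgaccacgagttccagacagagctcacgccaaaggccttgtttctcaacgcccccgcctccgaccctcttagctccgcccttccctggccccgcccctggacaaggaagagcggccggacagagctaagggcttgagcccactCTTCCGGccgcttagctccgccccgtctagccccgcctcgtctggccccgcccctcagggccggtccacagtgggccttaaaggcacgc

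The ETS-type letters, which the family of factors that includes GABP recognises and which are common at genes for mitochondrial proteins, stood in the promoters of 8 of the 21 matched members (38.1%), against 9.93% of all 27025 genes and 19.8% of the 9127 genes with a locus past the filter. These members were Timm8b, Timm10, Timm10b, Timm23, Timm8a2, Tomm22, Tomm70a and Tomm34, so the letters were present both in genes furthest below control and in the member above it. The letters CCAAT stood in 7 members (33.3%), against 43.2% of genes past the filter, and TATAAA in 2 (9.52%), Tomm5 and Timm13, against 8.29%. The NRF1-type core CGCATGCG was found in 1 member, Timm13 (4.76% against 4.50%), and the YY1-type letters AAGATGGCG in 1, Timm50 (4.76% against 3.60%). The 21 matched members include Timm8a2, with the ETS-type letters, and Tomm20l, with CCAAT, which were both below the filter. The shares of members are therefore not from the same kind of set as those of genes past the filter. All motifs were searched as exact letters on both strands. In Timm10, 2 of the ETS-type matches lie on opposite strands and overlap each other.

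The promoter of Timm8b also lies beside another gene for a mitochondrial protein. Sdhd, which encodes a membrane anchor of complex II, starts 98 nt upstream of Timm8b on the opposite strand. Sdhd had 99.0 FPKM in control, 111.6 in unaffected and 69.6 in affected tissue, a log2 ratio of -0.51 for affected against control beside -0.54 for Timm8b. Neighbours that start close to 3 other members on the opposite strand were not lower in affected tissue. Parg, 51 nt from Timm23, had a log2 ratio of 0.15 for affected against control, Pqbp1, 88 nt from Timm17b, had 0.013, and 2700049A03Rik, 164 nt from Timm9, had 0.35. Another 2 opposite-strand neighbours start downstream of the member's start: Arfip2 beside Timm10b had 0.006, and Stk4 beside Tomm34 had 0.29 where Tomm34 had 0.14. Frs3, which starts 644 nt upstream of Tomm6, had no locus of its own. The trend along transcript length was not subtracted from the ratios of these neighbours.

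The remaining genes of the import pathway were taken from a list of 32, all past the filter. For affected against control, 7 were lower past the fold (21.9%, against 8.62% of all loci) and 0 higher (against 8.78%), with a median log2 ratio of -0.20. For affected against unaffected, 15 were lower (46.9%, against 14.6% of all loci) and 0 higher (against 16.7%), with a median of -0.30. Dividing by the FPKM sums gave 2 lower, 3 higher and a median of 0.004 against unaffected, with all loci at 0.32. Shares of all loci past the fold were not computed under the scalings. Scaling to named loci gave 3 lower and a median of -0.023 against control, and 3 lower and 1 higher against unaffected, where subtracting the length trend gave 8 lower. In the import motor on the matrix side, Dnajc19 and Dnajc15, membrane-bound J proteins of the motor, had log2 ratios of -0.39 and -0.59 against control, while Hspa9, the Hsp70 that pulls the precursor in and that is named here after its value was seen, had 0.071 with 82.2, 82.6 and 86.3 FPKM in control, unaffected and affected tissue. Among the peptidases, Immp1l and Immp2l, the catalytic subunits of the inner membrane peptidase, had -0.57 and -0.69, the latter from only 1.89 FPKM in control, 1.71 in unaffected and 1.17 in affected tissue. Hspe1, the small lid of the matrix chaperonin, had 232 FPKM in control, 252 in unaffected and 159 in affected tissue, whereas its partner Hspd1, the large ring subunit, likewise named after its value was seen, had 133, 129 and 139. Chchd4, the oxidoreductase that folds the small TIM proteins by forming their disulfide bonds, had 29.2, 32.0 and 21.7 FPKM, a log2 ratio of -0.43 against control. Apoo, of the cristae organising complex, is joined with its pseudogene in the table and had -0.45.

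In the other steps of import no list member was past the fold against control. The members furthest from control in each step were Mtx2 of the outer membrane assembly machinery with a log2 ratio of -0.32, Mtch2, an insertase of the outer membrane, with -0.31, Agk, a partner of TIM22, with -0.13, and Oxa1l, which inserts proteins from the matrix side, with 0.065. The import list as a whole had a median of 0.11 for unaffected against control, with 0 past the fold, and dividing by the FPKM sums turned this to -0.22, with all loci at -0.33.

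Groups of genes whose products depend on import were set beside the members. Of 38 genes for complex I subunits, all made in the cytosol and imported, 15 were lower past the fold for affected against control (39.5%), with a median log2 ratio of -0.36. The mitochondrial ribosome had 16 of 76 (21.1%) and a median of -0.26. Slc25 carriers, the substrates of the small TIM and TIM22 route, had 3 of the 37 past the filter (8.11%) and a median of -0.047. The share of all loci lower past the fold was 8.62% in this comparison, so by this share alone the carriers were at the background. By direction, 67.6% of the carriers were below control, against 47.1% of all loci, whose median was 0.020. Higher past the fold were 0 carriers, against 8.78% of all loci. The length trend was not subtracted from the values of these groups. The Timm and Tomm genes had 22.7% and -0.28 in the same comparison, and the interquartile range of their values ran from -0.37 to -0.19, against -0.22 to 0.054 for the carriers. For affected against unaffected, 71.1% of complex I, 52.6% of the ribosome and 18.9% of the carriers were lower past the fold, with medians of -0.49, -0.38 and -0.15, beside 68.2% and -0.45 for the Timm and Tomm genes and 14.6% for all loci.

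**Figure D3:**
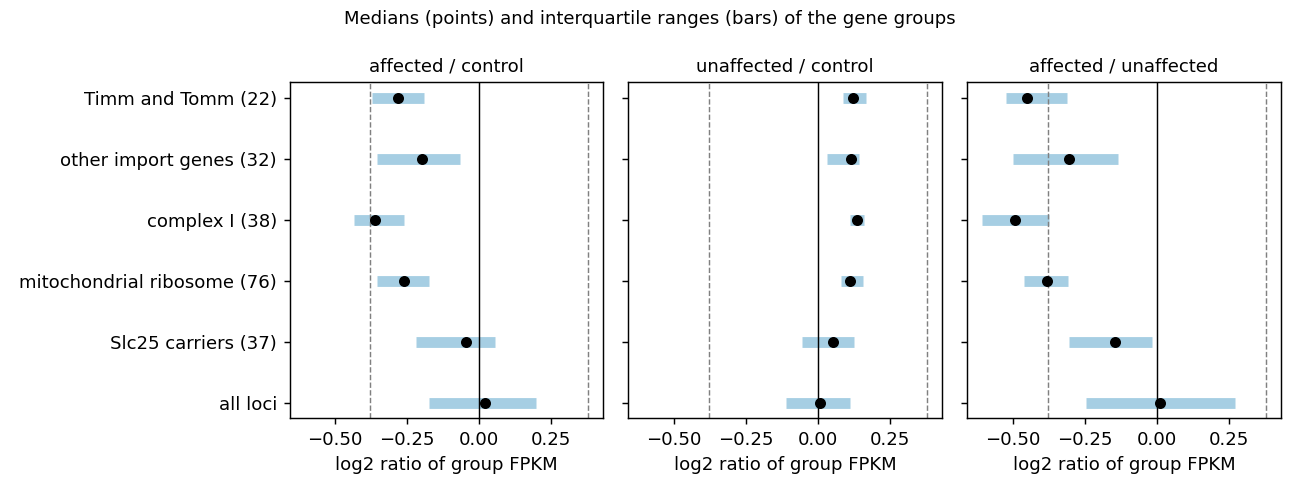
Median log2 ratio (points) and interquartile range (bars) of the Timm and Tomm genes, the other import genes, complex I, the mitochondrial ribosome, the Slc25 carriers and all loci past the filter in the 3 comparisons, with the number of loci in brackets and dashed lines at 1.3-fold. The Timm and Tomm genes sit at -0.28, 0.12 and -0.45, and the 0.12 for unaffected against control turns to -0.21 when each group is divided by its FPKM sum, with all loci at -0.33.

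The log2 ratios moved with transcript length, and most of the members are short. Their median transcript length was 1150 nt, from 518 nt in Timm8b to 5964 nt in Tomm70a, where all loci past the filter with a known length had a median of 2164 nt. Across all these loci the Spearman correlation of length with the log2 ratio of affected against control was 0.45, and across the 22 members it was 0.65. Genes are not independent replicates, and they share the same libraries, so these are descriptions. In the shortest 10% of loci, up to 735 nt, the median of all loci was -0.15 for affected against control, and that of the 7 members in it was -0.38. In the longest 10%, from 4928 nt, all loci had a median of 0.22, and the 1 member in it, Tomm70a, had -0.12.

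Set against loci of their own length, the members remained lower. With the running median along length subtracted, 20 of 22 members lay below 0 for affected against control, with a median of -0.20, and 20 of 22 for affected against unaffected, with a median of -0.26. Tomm40 and Tomm34 were the 2 above it in both comparisons. The count past the fold dropped from 5 to 3 of 22 against control, where Tomm5 was at -0.445 and Timm10 at -0.39, Tomm40l came in at -0.39, and Timm8b, Tomm7 and Timm9 no longer passed. Of all loci with a length, 4.53% were lower past the fold after this step. Against the unaffected group the count dropped from 15 to 5 of 22, where 7.59% of all loci were lower past the fold. Tomm70a, the longest member, changed the most in the other sense, from -0.12 to -0.34 against control and from -0.11 to -0.44, past the fold, against unaffected.

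**Figure D4:**
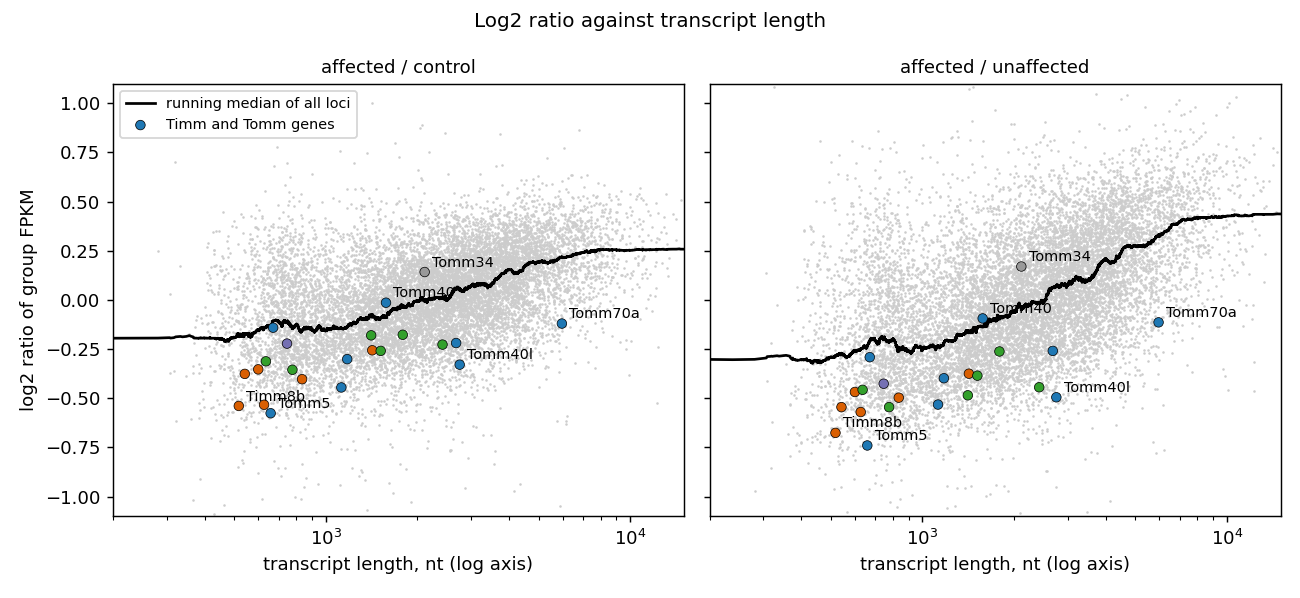
Log2 ratio of group FPKM against transcript length in nt (log axis) for affected against control and affected against unaffected, with all loci past the filter in grey, their running median as a line and the Timm and Tomm genes as points coloured by complex. Of the 22 members, 20 lie below the line in each panel, and Tomm40 and Tomm34 lie above it.

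Other measures moved with the groups as well. Fewer cells of a type and less RNA per cell cannot be told apart in such tissue. Blood genes, of which 5 of 7 symbols were listed, summed to 457 FPKM in control, 598 in unaffected and 373 in affected tissue, the same order of groups as in most Timm and Tomm genes. Choroid plexus markers, all 4 listed and dominated by Ttr, summed to 985, 1308 and 1096 FPKM. Projection neuron markers summed to 2367, 2301 and 2411, radial glia markers to 331, 345 and 394, and Eomes, of intermediate progenitors, was at 33.1, 33.8 and 41.5 FPKM. Markers of ventral telencephalon and interneurons summed to 109, 125 and 119 FPKM, and those of thalamus to 7.90, 5.59 and 6.09. Microglia markers summed to 14.3, 14.1 and 14.3 FPKM. Endothelium summed to 48.9, 50.2 and 49.3 FPKM, with Cldn5 lower in affected than in control tissue (33.9 and 36.9) and Kdr higher (7.09 and 5.02). Markers of meninges summed to 68.2, 62.6 and 59.4 FPKM, with Dcn lower in affected than in control tissue (22.1 and 31.6) and Col1a1 slightly higher (14.6 and 13.7). Myl7, of heart muscle, was at 0 in affected tissue, and the 4 heart and muscle markers summed to between 1.69 and 2.27 FPKM. The part of these shifts in the Timm and Tomm values was not tested.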

How the data were processed

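RNA-seq values of 9 mouse fetuses in 3 groups were analysed as deposited. The authors deposited 1 FPKM per group and locus, made with the Cufflinks suite on mm10; the methods name STAR and also Bowtie with TopHat, and the submitters' processing notes name Bowtie2 2.2.4.0, Cufflinks and Cuffdiff. Extraction is given as Trizol in the labels and as a column kit in the methods. The table also holds the authors' own fold changes, p-values, q-values and test status for 3 comparisons, which were not used. The number of columns with values of other samples was 0. Log2 ratios were computed from the group FPKM without a pseudocount, for loci with a mean of at least 1 FPKM, of which there were 15548; a ratio needs a value above 0 in both groups. Groups followed the sample labels. Transcript lengths, as medians over a gene's transcripts, positions and coding lengths came from GENCODE M21, matched by symbol for 12559 of these loci (80.8%), and a running median along length was subtracted for the length trend. Near copies were found with blastn 2.17.0. Promoters came from RefSeq tables. Ratios and trend removal were tested on simulated data. All 24 members are named; of the other import list, the member of each functional group furthest from control in affected tissue and every member past the fold in that comparison are named. The members and lists were chosen with earlier results of these data known. Alternatives were pseudocounts, filters, scalings, length, joined loci and other folds. Depth was not estimated, and the spread between animals is not known here. numpy 2.4.6, pandas 2.3.3, scipy 1.17.1 and matplotlib 3.10.9 were used.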

Additional observations from a re-analysis of the deposited data

How the results depend on the processing

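No paired analysis was possible because the values of single animals were not used, and for the same reason no animal could be left out in turn. Pseudocounts of 0.1 and 1, no filter, a mean of at least 5 FPKM, subtracting the median of all loci and leaving out joined loci kept all counts and medians of the Timm and Tomm genes and of the other import list within 1.5 times and changed the sign of 0 members. Single members crossed the fold there: Timm50 against unaffected left it with a pseudocount of 1 (-0.38), and with the median subtracted Timm13 passed it against control (-0.40) and Timm8a1 against unaffected (-0.39).

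Scaling each group to its FPKM sum gave 8 lower Timm and Tomm genes for affected against control, a median of -0.21 for unaffected against control, and 1 lower, 1 higher and a median of -0.14 for affected against unaffected; the other import list then had 3 lower and a median of -0.22 for unaffected against control, and 2 lower, 3 higher and a median of 0.004 for affected against unaffected. All loci moved as well, to -0.33 for unaffected against control and 0.32 for affected against unaffected. Scaling to the sum over named loci, chosen after seeing the data, gave 1 lower and a median of -0.10 for affected against control, a median of 0.048 for unaffected against control, and 2 lower, 1 higher and a median of -0.20 for affected against unaffected; the list had 3 lower and -0.023, then 0.040, then 3 lower, 1 higher and -0.056. All loci then had 0.20 for affected against control and 0.26 for affected against unaffected. Subtracting the length trend gave 3 lower for affected against control, a median of 0.058 for unaffected against control, and 5 lower and a median of -0.26 for affected against unaffected, with 8 lower in the list. A fold of 1.2 gave 11 lower members and 14 of the list for affected against control, and 1 higher of each for unaffected against control. A fold of 1.5 gave 0 and 2 lower for affected against control, and 2 and 3 lower for affected against unaffected. The shares of all loci at folds of 1.2 and 1.5 were not computed, so these counts have no background beside them. A count that moved with a scaling did so because the scaling shifts all loci. The share of all loci past the fold under each scaling was not computed.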
